A study of Mus musculus with 6 samples.

Results

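The 46 genes described here carry fatty acids into the cell, activate them, store them as triglyceride, release them again, oxidise them in mitochondria or make and desaturate them. They were listed by symbol, and each symbol matched 1 of the 52636 Ensembl genes counted in the study. RNA was sequenced from lung innate lymphoid cells (ILCs) of wild-type C57BL/6 mice that carry the 4get allele, in which Il4 is followed by a fluorescent reporter (GFP). KLRG1-positive cells, labelled ILC2 and called KLRG1-high in the sorting protocol, gave 3 libraries, and KLRG1-negative cells, labelled ILC, gave 3. Cells of both groups were lineage-negative and CD90-positive, with over 90% purity stated for the sort, and came from mice given 500 ng of interleukin-33 intraperitoneally for 4 days and killed on day 5. Mice without interleukin-33 were not analysed here. Nothing in the labels ties libraries to single mice or pools, so a p-value reflects the scatter of these 6 libraries, which may be technical.

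Free fatty acids enter cells through CD36 and fatty acid transport proteins, often after lipoprotein lipase has freed them from triglyceride-rich particles. Inside, acyl-CoA synthetases trap them as CoA esters, which are either built into triglyceride and kept in lipid droplets or passed by the carnitine shuttle into mitochondria, where a 4-step cycle shortens them. PPARγ, a nuclear receptor that binds fatty acids, switches on uptake and storage genes in fat cells. Group 2 ILCs (ILC2) of the mouse lung are known to express PPARγ and to take up external lipids into droplets when interleukin-33 activates them.

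Library depth was 17323004 to 23421426 assigned counts in KLRG1-positive cells and 17898268 to 23946073 in KLRG1-negative cells. Klrg1 stood at 1485, 1786 and 1327 CPM (counts scaled to a common library size, with TMM factors) in KLRG1-positive libraries, against 13.1, 193 and 73.2 CPM in KLRG1-negative libraries, so the sort label held in every library (adjusted p = 0.0939). The 2 sorts also differed in the transcripts of other cells. The summed level of 7 fibroblast markers was 17.7 to 47.6 CPM in KLRG1-positive libraries, against 3860 to 10794 CPM in KLRG1-negative libraries, with all 7 lower on average in KLRG1-positive cells. Lum, which encodes lumican, was at 0 in KLRG1-positive libraries 1 and 2. Summed T cell markers (7 of 7 lower) were at 296 to 352 CPM in KLRG1-positive libraries, against 972 to 3866 CPM in KLRG1-negative libraries, and summed B cell markers (6 of 6 lower) at 121 to 350 CPM in KLRG1-positive libraries, against 526 to 4192 CPM in KLRG1-negative libraries. The 8 ILC2 markers summed to 5778.5 to 7333 CPM in KLRG1-positive libraries, against 1403 to 3543 CPM in KLRG1-negative libraries, lowest in KLRG1-negative library 1. In bulk RNA, fewer cells of a type and less RNA per cell cannot be told apart.

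No gene of the set passed the test, and the values that separated the sorts fell on both sides. Elovl5, Plin2, Dgat2, Pparg and several enzymes of the oxidation cycle were higher in every KLRG1-positive library than in any KLRG1-negative one. Lpl, Scd1, Fads2, Mgll, Plin3, Lpin1 and Lipa were among those lower in every KLRG1-positive library. Of the 46 genes, 44 had enough counts to be tested and 0 passed at an adjusted p of 0.05 in edgeR's quasi-likelihood test, where 1.34% of all 15197 tested genes passed (0.125% higher and 1.21% lower in KLRG1-positive cells). At an unadjusted p under 0.05, KLRG1-positive cells had 8 members higher and 9 lower, 17 of 44, where 15.7% of all tested genes were past that limit (4.19% higher and 11.5% lower). DESeq2 called 5 higher and 5 lower among the 43 members to which it gave an adjusted p, where it called 11.4% of all genes (2.29% higher and 9.11% lower). When the replicate number entered as a block, edgeR called 0 of the 44, where it called 0.349% of all tested genes. At an unadjusted p under 0.05 the blocked fit had 11 higher and 9 lower members, where 6.74% and 12.3% of all tested genes were higher and lower.

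The groups did not overlap for 21 of the 44 tested members (47.7%), 10 with the KLRG1-positive libraries above and 11 with them below, where 24.6% of all tested genes had non-overlapping groups (9.45% above and 15.2% below). The members were chosen with earlier results of these data known, so no excess over all genes is read from this share or from those given before. Signs were mixed: 24 of the 44 had a positive log2 fold change (KLRG1-positive over KLRG1-negative), where 46.5% of all tested genes did, and the median was 0.09 against -0.05 over all tested genes. The 4 largest differences were Fads2 at -4.43, Scd1 at -3.88, Lpl at -3.44 and Pparg at 2.19.

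**Figure D1:**
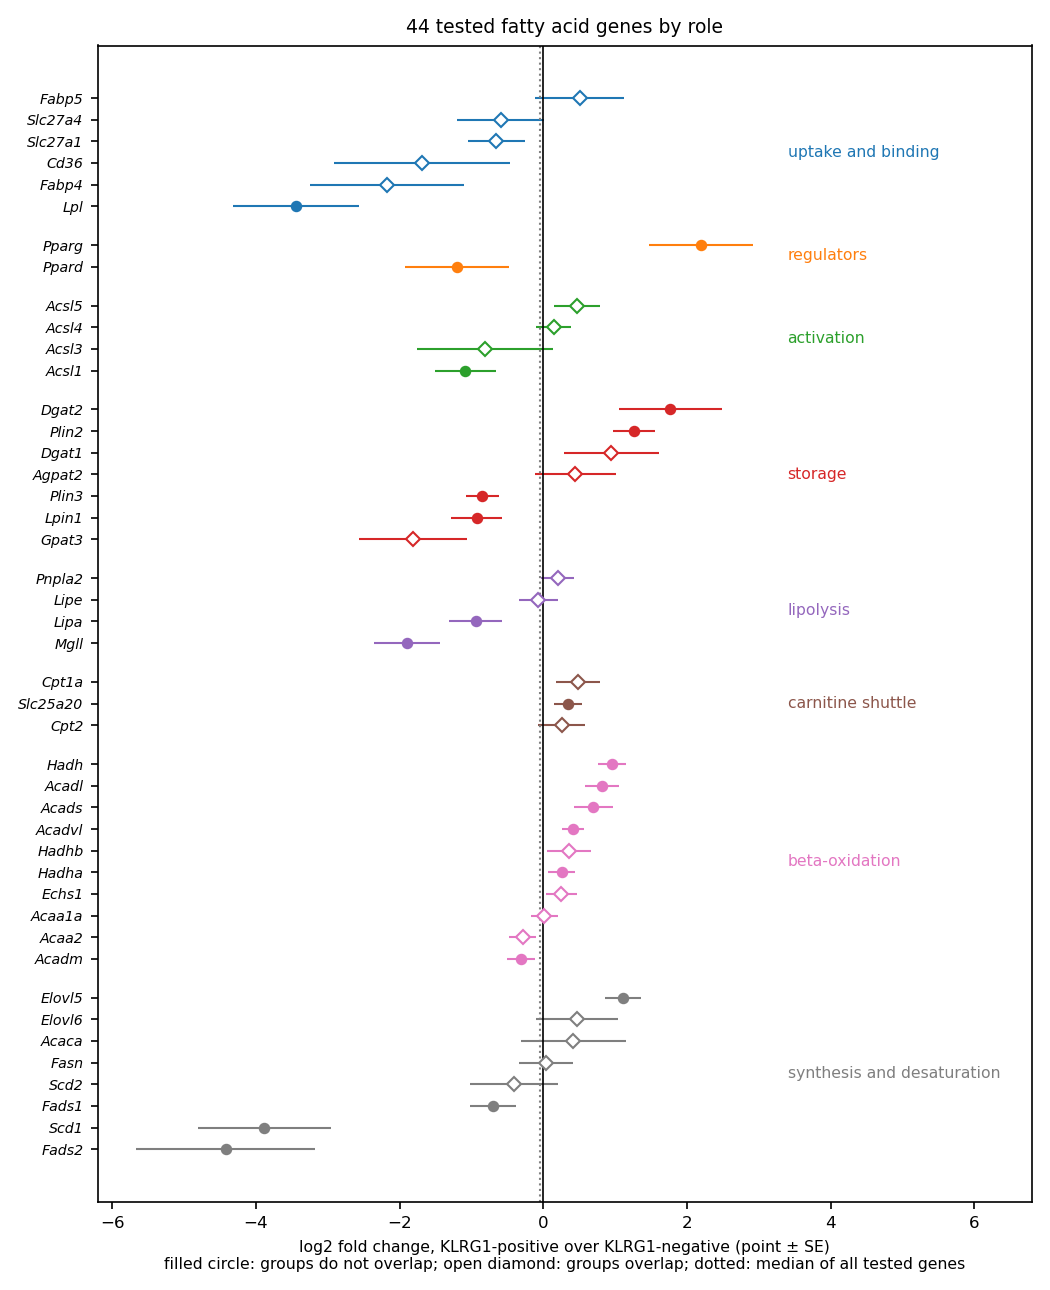
Log2 fold change (KLRG1-positive over KLRG1-negative, horizontal axis) with its standard error for the 44 tested genes, grouped by role. Filled circles mark the 21 genes whose 3 KLRG1-positive and 3 KLRG1-negative libraries did not overlap, and the dotted line the median of all tested genes (-0.05). Most oxidation genes lie close to 0 on the right, while Fads2, Scd1 and Lpl lie farthest to the left.

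Per kilobase of gene model, which allows only a rough comparison between genes, Elovl5 was the most abundant member in KLRG1-positive cells at 223 CPM per kilobase, followed by Acaa2 at 123 and Acadl at 117. In KLRG1-negative cells the same 3 genes led, with Acaa2 at 150, Elovl5 at 103 and Acadl at 66.4 CPM per kilobase. Pparg ranked 5 of 46 in KLRG1-positive cells, at 77.0 CPM per kilobase, and 20 in KLRG1-negative cells, at 16.9. Summed over the 46 genes, KLRG1-positive libraries held 4876, 4464 and 4327 CPM, against 3384, 3286 and 4164 CPM in KLRG1-negative libraries.

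Promoter sequences are shown for Pparg, the member with the largest positive fold change, and for the pair with the smallest p-values in each direction among members in the RefSeq promoter table (Hadh and Elovl5 above, Mgll and Plin3 below). The table held 37 of the 46 genes, in 44 windows of 250 bases before to 50 after a start. Acaa2, Dgat1, Dgat2, Fabp4, Fabp5, Fads1, Lpl, Scd1 and Scd2 had no entry. The 120 bases before each start are given 5′ to 3′ on the gene's strand (RefSeq, GRCm38.p6), with capitals for the core promoter letters CCAAT or TATAAA on either strand. Pparg has 3 starts, on the plus strand at chr6:115361024-115361143 (A), chr6:115362229-115362348 (B) and chr6:115421946-115422065 (C). Elovl5 lies at chr9:77917245-77917364 and Mgll at chr6:88724292-88724411 (the first of its starts), both plus. Hadh lies at chr3:131272102-131272221 and Plin3 at chr17:56290512-56290631, both minus.
Pparg start A: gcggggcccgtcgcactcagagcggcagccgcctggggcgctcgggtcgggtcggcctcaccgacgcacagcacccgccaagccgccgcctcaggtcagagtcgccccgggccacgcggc
Pparg start B: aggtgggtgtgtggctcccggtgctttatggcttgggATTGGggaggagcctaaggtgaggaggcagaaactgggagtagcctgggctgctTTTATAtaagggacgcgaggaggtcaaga
Pparg start C: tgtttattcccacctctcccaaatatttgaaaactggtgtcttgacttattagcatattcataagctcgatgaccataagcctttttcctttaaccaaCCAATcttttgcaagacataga
Hadh: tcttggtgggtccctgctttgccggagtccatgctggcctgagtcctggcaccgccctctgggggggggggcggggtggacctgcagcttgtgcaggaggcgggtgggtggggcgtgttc
Elovl5: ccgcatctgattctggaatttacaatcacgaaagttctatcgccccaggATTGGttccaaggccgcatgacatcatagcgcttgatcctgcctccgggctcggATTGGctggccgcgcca
Mgll: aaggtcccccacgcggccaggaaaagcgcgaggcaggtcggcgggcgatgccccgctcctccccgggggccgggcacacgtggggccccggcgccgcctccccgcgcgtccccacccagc
Plin3: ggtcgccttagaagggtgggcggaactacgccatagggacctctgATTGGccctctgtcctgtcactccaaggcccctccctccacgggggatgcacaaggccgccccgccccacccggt

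Pparg start A is 79.2% G and C, start B 56.7% and start C 35.8%. Only start B among the 44 member windows holds TATAAA on either strand (here the opposite one), as do 6.34% of all 32851 windows. Overlapping that match, the gene's own strand reads TATATAAG, which a search for TATAAA does not mark. CCAAT on either strand stands in 13 of the 44 windows (29.5%), against 21.3% of all windows. Gene counts do not separate the starts. The direct repeat that PPAR and RXR bind (the PPRE half-sites AGGNCA with a spacer of 1 base), searched on both strands of the full windows, matched in 0 of 37 member genes and in 0.451% of the 27025 genes of the table. The SREBP element TCACNCCAC matched in 1 member, Acsl1, and in 1.44% of all genes. That match, on the opposite strand and 76 bases before an Acsl1 start, lies in chr8:46490870-46490918 (plus) and is shown with the motif in capitals.
Acsl1: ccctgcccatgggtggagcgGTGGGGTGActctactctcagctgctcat

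Among the regulators, Pparg stood apart. It was at 194, 223 and 265 CPM in KLRG1-positive libraries, against 9.01, 69.8 and 70.6 CPM in KLRG1-negative libraries (ENSMUSG00000000440, chromosome 6, 115360951 to 115490399, plus strand). Every KLRG1-positive library was above every KLRG1-negative one, and KLRG1-negative library 1 was far below its 2 partners. The mean was 228 ± 35.6 CPM in KLRG1-positive libraries, against 49.8 ± 35.3 CPM in KLRG1-negative libraries (SD, n = 3 each), a log2 fold change of 2.19 ± 0.72 (SE) with an adjusted p of 0.21 in edgeR and 0.0187 in DESeq2. Without KLRG1-negative library 1 it was 1.70, with an adjusted p of 0.0552. Its other family members were scarce. Ppard, the broadly expressed PPARδ, was at 0.507, 1.12 and 1.24 CPM in KLRG1-positive libraries, against 3.45, 1.93 and 1.25 CPM in KLRG1-negative libraries, groups that barely missed each other (adjusted p = 0.52). Ppara, the main PPAR of liver oxidation, had 2 counts in each group, and the coactivator gene Ppargc1a 15 counts in KLRG1-positive and 3 in KLRG1-negative libraries, so both fell under the expression filter.

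**Figure D2:**
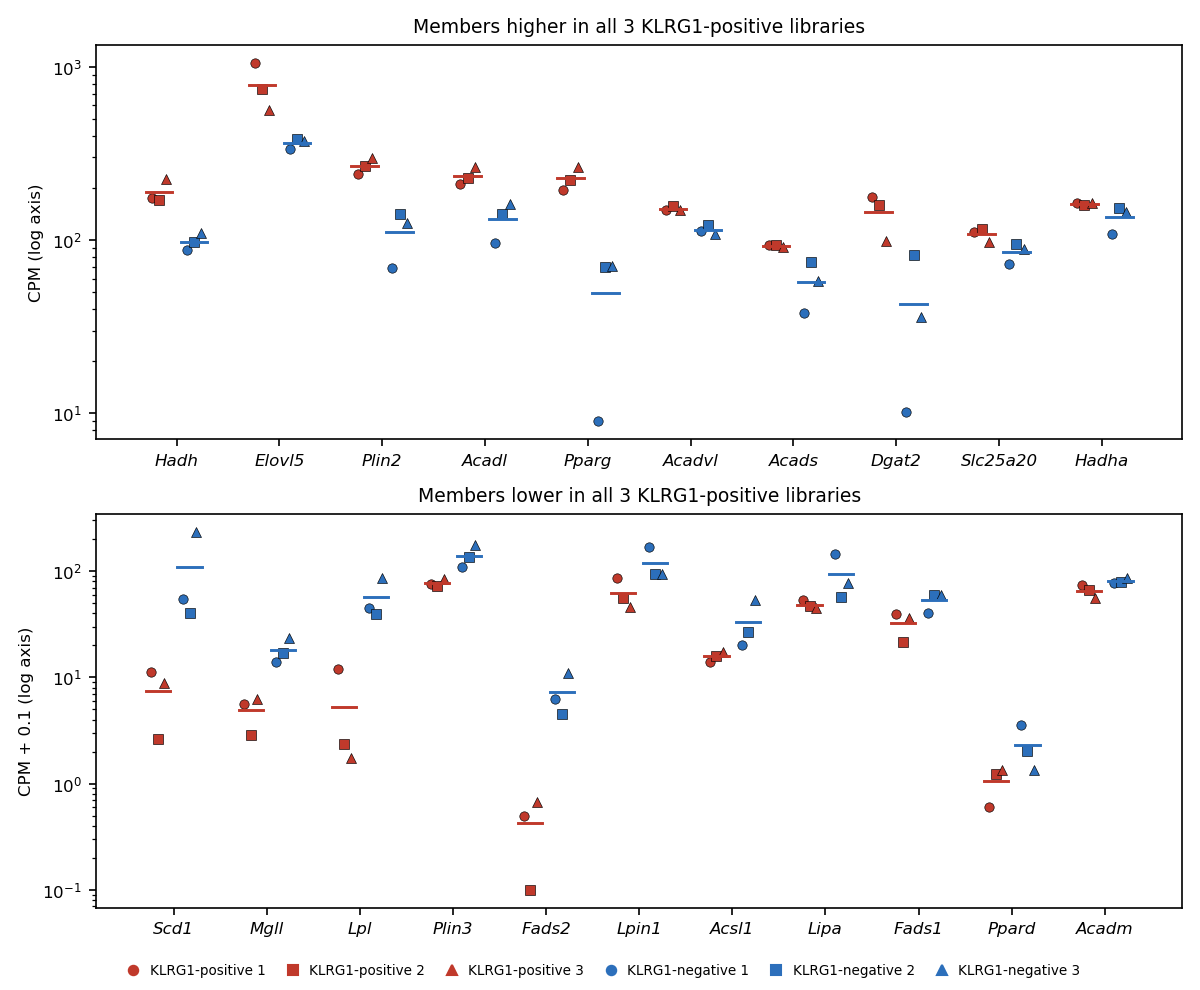
CPM per library on a log axis for the 10 members with all KLRG1-positive libraries above (top) and the 11 with all of them below (bottom, with 0.1 added so that a library at 0 can be drawn), ordered by p-value. Red symbols are KLRG1-positive and blue KLRG1-negative libraries, circles, squares and triangles libraries 1, 2 and 3, and bars the group means. KLRG1-negative library 1 is the lowest of its group for every gene at the top except Acadvl.

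Genes of uptake and lipid binding tended the other way, with 5 of 6 negative log2 fold changes and 0 past the test. Lpl, which encodes lipoprotein lipase, was at 11.8, 2.24 and 1.64 CPM in KLRG1-positive libraries, against 44.6, 39.2 and 85.9 CPM in KLRG1-negative ones (chromosome 8, 68880491 to 68907448). The groups did not overlap, and KLRG1-positive library 1 was the highest of its group (log2 fold change -3.44 ± 0.88, adjusted p = 0.118). Without that library the adjusted p was 0.0333, the only call for any member in the 6 edgeR fits that left out 1 library. Lpl is made by fibroblasts and fat cells. In the same libraries the fibroblast markers differed as given above, and their part in the Lpl difference was not tested. The 6 adipocyte markers were at or near 0: their sum was 0.044 to 0.394 CPM in KLRG1-positive libraries, against 0.048 to 0.612 CPM in KLRG1-negative libraries, with Cidec, Lep and Adrb3 at 0 in all 6.

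Cd36, the scavenger receptor that takes up fatty acids, varied widely within each sort. It was at 90.1, 9.72 and 7.32 CPM in KLRG1-positive libraries, against 165, 17.4 and 164 CPM in KLRG1-negative libraries, so the highest KLRG1-positive library lay above the lowest KLRG1-negative one (adjusted p = 0.611). Within each number the KLRG1-positive library was the lower one, with a blocked log2 fold change of -1.93 and an adjusted p of 0.363. The 3 libraries with high Cd36 were also those with the highest sums of alveolar epithelial markers, which were 558, 69.7 and 91.9 CPM in KLRG1-positive libraries, against 714, 123 and 516 CPM in KLRG1-negative libraries (8 of 9 markers lower on average in KLRG1-positive cells). In KLRG1-negative library 3 Napsa made up 466 CPM of that sum and Sftpc 1.15 CPM. Napsa was highest in that library, as was the B cell marker sum. The 9 endothelial markers, all lower on average in KLRG1-positive cells, summed to 323, 169 and 101 CPM in KLRG1-positive libraries, against 513, 133 and 237 CPM in KLRG1-negative libraries. Pecam1 alone made up 146, 143 and 95.4 CPM of the sums in KLRG1-positive libraries, and 247, 97.5 and 169 CPM in KLRG1-negative libraries. In KLRG1-positive library 3 Cdh5, Tek, Tie1, Cldn5, Emcn and Gpihbp1 were at 0. In KLRG1-negative library 3, with Cd36 at 164 CPM, these genes were at 0.577, 36.2, 0.048, 2.31, 1.92 and 0 CPM, in that order. Cd36 is abundant in lung endothelium, and whether these cells account for its values was not tested. Fabp4, the fatty acid binding protein of fat cells and capillaries, was low everywhere, at 4.17, 0.534 and 0.621 CPM in KLRG1-positive libraries, against 10.7, 11.1 and 2.21 CPM in KLRG1-negative libraries (adjusted p = 0.416).

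Fabp5, the binding protein used by many leukocytes, was at 8.33, 6.25 and 14.9 CPM in KLRG1-positive libraries, against 2.78, 9.82 and 8.12 CPM in KLRG1-negative ones. The groups overlapped (log2 fold change 0.51 ± 0.62). Because reads that map to several places were left out, genes with close copies are understated, and low Fabp5 values are uncertain for that reason. Slc27a1 and Slc27a4, which encode the fatty acid transport proteins FATP1 and FATP4, averaged 21.3 ± 4.18 and 15.0 ± 9.58 CPM in KLRG1-positive cells, against 33.5 ± 15.9 and 22.6 ± 7.37 CPM in KLRG1-negative cells. Both pairs overlapped.

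**Figure D3:**
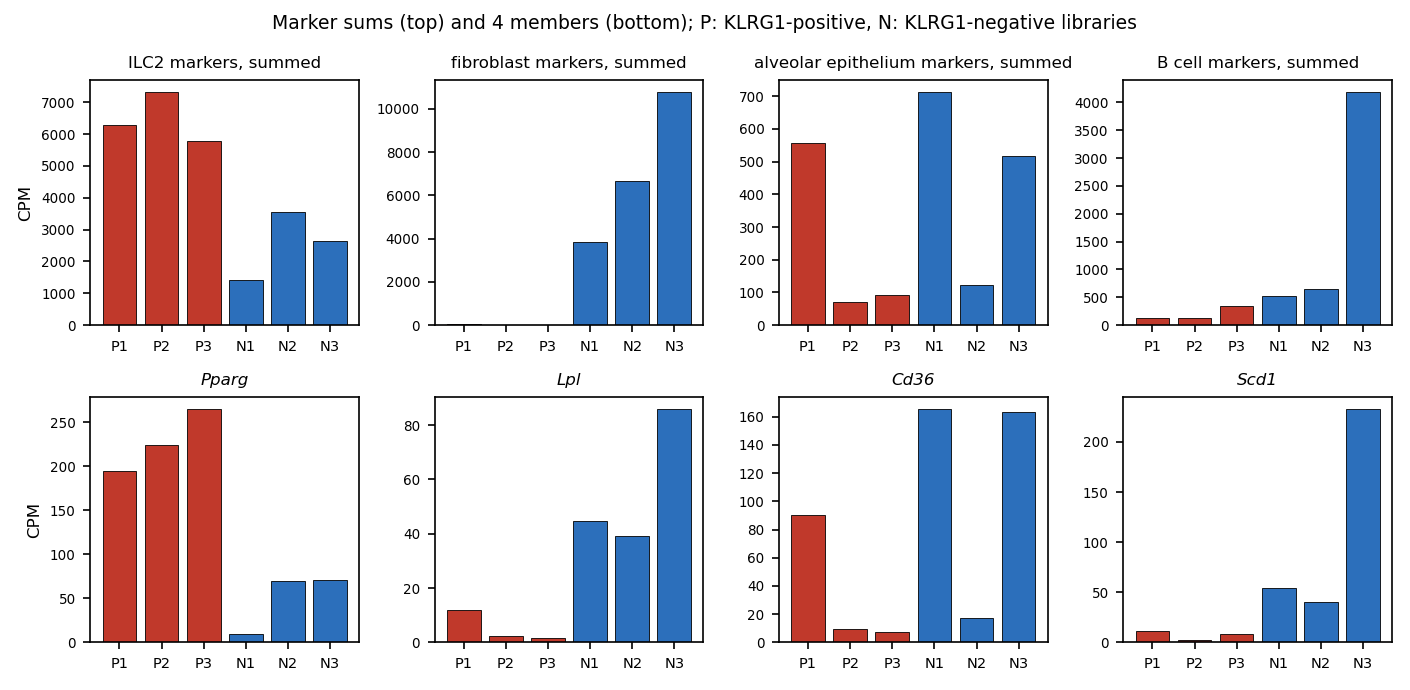
Summed CPM of the ILC2, fibroblast, alveolar epithelial and B cell markers (top) and CPM of Pparg, Lpl, Cd36 and Scd1 (bottom) in each library, KLRG1-positive libraries (P1 to P3, red) left of KLRG1-negative ones (N1 to N3, blue). Lpl is highest in N3, as are the fibroblast markers, but N1 is above N2 in Lpl and below it in the fibroblast markers. Cd36 is high in P1, N1 and N3, as is the alveolar epithelial sum, of which Napsa alone makes up 466 of 516 CPM in N3.

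The acyl-CoA synthetases, which activate fatty acids on entry, differed in level more than between sorts. Acsl5 was the most abundant of the 4, at 70.5 CPM per kilobase in KLRG1-positive and 51.0 in KLRG1-negative cells. In CPM it stood at 423, 245 and 362 in KLRG1-positive and 270, 163 and 311 in KLRG1-negative libraries, in overlapping groups (adjusted p = 0.58). Library 2 was the lowest of each group. Acsl4, which prefers arachidonate, was at 93.9, 81.8 and 88.3 CPM in KLRG1-positive libraries, against 92.8, 57.2 and 89.3 CPM in KLRG1-negative libraries (0.14 ± 0.24). Acsl1, the isoform of fat cells and macrophages, was scarcer and separated the sorts, at 13.7, 15.9 and 17.4 CPM in KLRG1-positive libraries, against 19.9, 26.7 and 53.4 CPM in KLRG1-negative libraries (-1.09 ± 0.42, adjusted p = 0.29). Acsl3, which acts at growing lipid droplets, was at 9.51 ± 7.59 CPM in KLRG1-positive cells, against 16.8 ± 12.4 CPM in KLRG1-negative cells, a difference within the spread.

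Storage genes were split between the sorts, with 4 of 7 log2 fold changes positive and 0 past the test. Plin2, the perilipin that coats lipid droplets in most cells, was at 241, 267 and 296 CPM in KLRG1-positive libraries, against 68.8, 142 and 125 CPM in KLRG1-negative ones (chromosome 4, 86648386 to 86670060). No value of one group reached the other (1.26 ± 0.30, adjusted p = 0.0986 in edgeR and 0.00306 in DESeq2). Dgat1 and Dgat2 encode the 2 enzymes of the last step of triglyceride synthesis. Dgat2 was at 178, 159 and 98.3 CPM in KLRG1-positive libraries, against 10.2, 81.8 and 35.8 CPM in KLRG1-negative libraries, without overlap (1.77 ± 0.72, adjusted p = 0.306). Dgat1 was at 86.0, 416 and 225 CPM in KLRG1-positive libraries, against 60.8, 207 and 109 CPM in KLRG1-negative libraries. It was higher in the KLRG1-positive library of each number, and library 2 exceeded library 1 more than 3-fold in both sorts. The groups therefore overlapped, and the adjusted p was 0.6 without and 0.127 with the replicate block.

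In contrast to Plin2, Plin3, a perilipin that binds small, new droplets, was at 76.3, 73.0 and 83.3 CPM in KLRG1-positive libraries, below the 108, 135 and 176 CPM of the KLRG1-negative ones (-0.85 ± 0.23, adjusted p = 0.129 in edgeR and 0.0124 in DESeq2). Per kilobase, Plin2 stood at 76.4 and Plin3 at 35.9 CPM in KLRG1-positive cells, while in KLRG1-negative cells Plin2 stood at 31.9 and Plin3 at 64.8. By these means per kilobase, which depend on the deposited gene lengths, the order of the 2 perilipins was reversed between the sorts. Lpin1, the phosphatidate phosphatase lipin 1, was at 85.5, 56.2 and 45.7 CPM in KLRG1-positive libraries, against 169, 93.6 and 94.6 CPM in KLRG1-negative libraries (-0.93 ± 0.35, adjusted p = 0.276). Library 1 was the highest of both sorts in Lpin1. Gpat3 and Agpat2, which add the first acyl chains to glycerol phosphate, overlapped between sorts, at 2.14 ± 0.515 and 35.4 ± 22.6 CPM in KLRG1-positive cells, against 7.54 ± 5.17 and 26.0 ± 3.88 CPM in KLRG1-negative cells. Agpat2 overlaps Egfl7 on the other strand. Counting used no strand, so reads that match both genes of such a pair were ambiguous and left out. How much this changes the counts was not tested. The same holds for Acsl5 with Zdhhc6 and for Acaa1a with Myd88, which had more counts than Acaa1a itself.

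The genes that release stored fat were level or lower. Pnpla2, which encodes the triglyceride lipase ATGL, was at 151, 132 and 110 CPM in KLRG1-positive libraries, against 139, 89.1 and 115 CPM in KLRG1-negative libraries (0.20 ± 0.23), and Lipe, the hormone-sensitive lipase, averaged 22.9 ± 4.22 CPM in KLRG1-positive cells, against 24.0 ± 2.19 CPM in KLRG1-negative cells. Both differences were within the spread of the libraries. Mgll, which cleaves monoglycerides and the endocannabinoid 2-arachidonoylglycerol, was at 5.52, 2.78 and 6.21 CPM in KLRG1-positive libraries, against 13.9, 16.8 and 23.4 CPM in KLRG1-negative ones. It was lower in every KLRG1-positive library (-1.90 ± 0.46, adjusted p = 0.105 in edgeR and 0.000831 in DESeq2). Lipa, the acid lipase of lysosomes, was at 53.1, 47.2 and 44.8 CPM in KLRG1-positive libraries, against 145, 56.6 and 77.2 CPM in KLRG1-negative libraries (-0.94 ± 0.37, adjusted p = 0.294). Its KLRG1-positive values were even, and most of the spread lay among the KLRG1-negative libraries. Macrophages are rich in Lipa. Their 10 markers, with monocytes, summed to 223 to 715 CPM in KLRG1-positive libraries, against 145 to 880 CPM in KLRG1-negative libraries. On average 7 of the 10 were lower in KLRG1-positive cells. Chil3 alone made up 418, 485 and 172 CPM of the KLRG1-positive sums, and 502, 719 and 54.3 CPM of the KLRG1-negative sums. Of the 9 tested markers, 2 (Cd68 and Mrc1) were lower in every KLRG1-positive library and 0 higher in every one. Over all tested genes, 15.2% were lower in this way. The part of macrophages in the Lipa difference was not tested.

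Genes of the carnitine shuttle stood slightly higher in KLRG1-positive cells, 3 of 3 with positive log2 fold changes and 0 past the test. Cpt1a, the rate-limiting step of entry into mitochondria, was at 308, 203 and 171 CPM in KLRG1-positive libraries, against 211, 147 and 130 CPM in KLRG1-negative libraries (0.48 ± 0.30, adjusted p = 0.537). Library 1 was the highest and library 3 the lowest in both sorts, and each KLRG1-positive library was above the KLRG1-negative one of its number. Slc25a20, the carnitine-acylcarnitine carrier, was at 112, 117 and 97.9 CPM in KLRG1-positive libraries, against 72.4, 95.6 and 88.8 CPM in KLRG1-negative libraries, without overlap and with a small difference (0.34 ± 0.19, adjusted p = 0.479). Cpt2, which reverses the transfer inside, averaged 38.6 ± 12.02 CPM in KLRG1-positive cells, against 32.4 ± 6.44 CPM in KLRG1-negative cells.

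The group means of every oxidation cycle gene differed by less than 2-fold. Of its 10 genes, 8 had positive log2 fold changes, 1 of which, Acaa1a, was at 0.01 and turned to -0.02 when libraries were scaled by size only. None passed, and the median was 0.30. Summed, the 10 genes stood at 1249, 1320 and 1326 CPM in KLRG1-positive libraries, against 918, 1071 and 1133 CPM in KLRG1-negative ones. The acyl-CoA dehydrogenases, which take the first step, were not uniform. Acadl, for long chains, was at 211, 227 and 264 CPM in KLRG1-positive libraries, against 96.6, 141 and 162 CPM in KLRG1-negative libraries (0.81 ± 0.24, adjusted p = 0.161). Acadvl, for very long chains, was at 148, 157 and 149 CPM in KLRG1-positive libraries, against 112, 122 and 108 CPM in KLRG1-negative libraries (0.41 ± 0.16, adjusted p = 0.275), and Acads, for short chains, at 93.7, 93.7 and 90.9 CPM in KLRG1-positive libraries, against 38.2, 75.1 and 58.2 CPM in KLRG1-negative libraries (0.70 ± 0.28, adjusted p = 0.298). These 3 were higher in every KLRG1-positive library. Acadm, for medium chains, was the exception, at 73.3, 65.9 and 55.2 CPM in KLRG1-positive libraries, against 76.8, 78.1 and 86.3 CPM in KLRG1-negative libraries (-0.31 ± 0.20, adjusted p = 0.538). Acadvl overlaps Dvl2 on the other strand.

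Of the later steps, Hadh had the smallest p-value of all 44 members. It encodes the medium and short chain 3-hydroxyacyl-CoA dehydrogenase and was at 175, 171 and 225 CPM in KLRG1-positive libraries, against 87.5, 97.4 and 109 CPM in KLRG1-negative ones (chromosome 3, 131233419 to 131272101). The lowest KLRG1-positive library was well above the highest KLRG1-negative one (0.96 ± 0.19, unadjusted p = 0.00221, adjusted p = 0.0716 in edgeR and 0.000136 in DESeq2). Hadha and Hadhb encode the 2 subunits of the mitochondrial trifunctional protein and lie head to head on chromosome 5 with 85 bases between their gene models. Hadha was at 164, 160 and 163 CPM in KLRG1-positive libraries, against 109, 154 and 146 CPM in KLRG1-negative libraries (0.25 ± 0.19), and Hadhb averaged 37.1 ± 5.76 CPM in KLRG1-positive cells, against 29.1 ± 9.21 CPM in KLRG1-negative cells (0.35 ± 0.31). Per kilobase, Hadha was the higher of the pair, at 18.6 against 5.63 CPM for Hadhb in KLRG1-positive cells and 15.6 against 4.41 in KLRG1-negative cells. Acaa2, the mitochondrial thiolase, was among the most abundant members in both sorts and leaned to KLRG1-negative cells, at 169, 216 and 172 CPM in KLRG1-positive libraries, against 199, 223 and 259 CPM in KLRG1-negative libraries (-0.29 ± 0.19, adjusted p = 0.567). The peroxisomal thiolase gene Acaa1a averaged 96.6 ± 14.8 CPM in KLRG1-positive cells, against 95.8 ± 3.69 CPM in KLRG1-negative cells, and the hydratase gene Echs1 83.2 ± 4.05 CPM in KLRG1-positive cells, against 69.9 ± 14.5 CPM in KLRG1-negative cells.

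**Figure D4:**
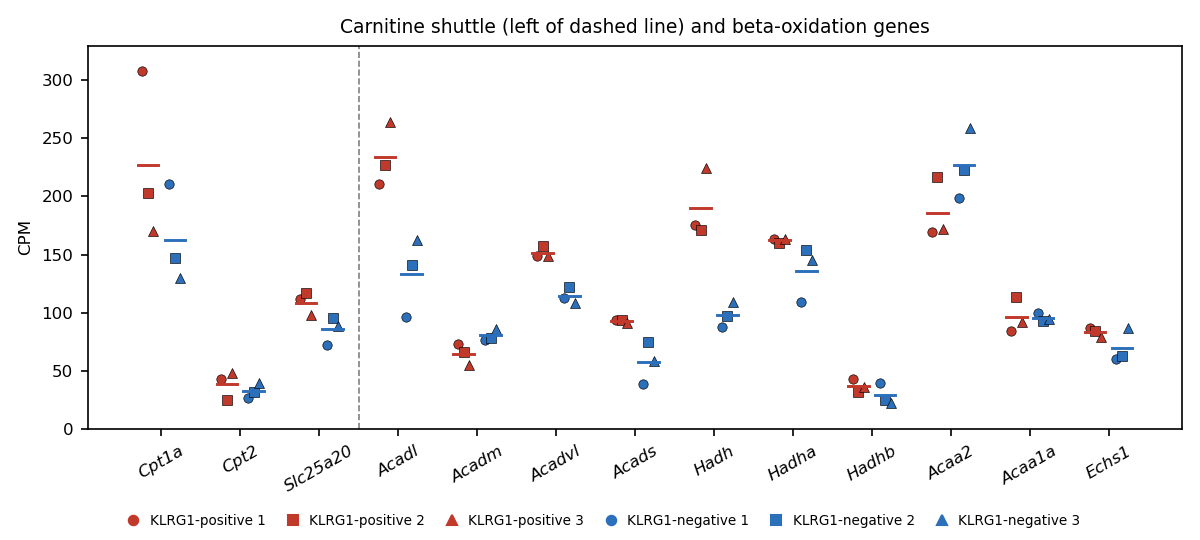
CPM per library (linear axis from 0) for the 3 carnitine shuttle and 10 oxidation genes, KLRG1-positive libraries (red) left of KLRG1-negative ones (blue), with group means as bars. Hadh, Acadl, Acads, Acadvl and Hadha are higher in all KLRG1-positive libraries, Acadm is lower in all, and Acaa2 and Acaa1a overlap.

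Synthesis and desaturation genes held both the most abundant member and the largest differences. Elovl5, which lengthens polyunsaturated chains, was at 1048, 741 and 563 CPM in KLRG1-positive libraries, against 336, 382 and 374 CPM in KLRG1-negative libraries (chromosome 9, 77917364 to 77984519). The KLRG1-negative values were even and the KLRG1-positive ones spread, without overlap (1.11 ± 0.25, adjusted p = 0.0938 in edgeR and 0.00531 in DESeq2). The desaturases that work on the same chains leaned the other way. Fads2, the Δ6-desaturase, was at 0.394, 0 and 0.577 CPM in KLRG1-positive libraries, 20 counts in all, against 6.12, 4.42 and 10.9 CPM in KLRG1-negative ones (-4.43 ± 1.25, adjusted p = 0.15 in edgeR and 0.000563 in DESeq2). Fads1, the Δ5-desaturase on the same chromosome, was at 39.2, 21.6 and 36.4 CPM in KLRG1-positive libraries, against 39.9, 59.7 and 59.2 CPM in KLRG1-negative libraries (-0.71 ± 0.32, adjusted p = 0.363). Per kilobase, Fads2 was at 0.215 and Fads1 at 9.38 CPM in KLRG1-positive cells, while in KLRG1-negative cells Fads2 was at 4.73 and Fads1 at 15.3. The part of the fibroblast transcripts in the Fads2 difference was not tested.

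The stearoyl-CoA desaturases, which make oleate, differed from each other. Scd1 was at 11.04, 2.51 and 8.66 CPM in KLRG1-positive libraries, against 54.3, 40.5 and 233 CPM in KLRG1-negative ones (chromosome 19, 44394451 to 44407709), while its paralog Scd2 was at 94.6, 41.1 and 102 CPM in KLRG1-positive libraries, against 82.6, 42.8 and 191 CPM in KLRG1-negative libraries. Scd1 was lower in every KLRG1-positive library (-3.88 ± 0.92, adjusted p = 0.0996 in edgeR and 5.1e-05 in DESeq2), and Scd2 overlapped (-0.41 ± 0.61, adjusted p = 0.842). For both genes KLRG1-negative library 3 was the highest of the 6. That library also had the most fibroblast and B cell transcripts, with sums of 10794 and 4192 CPM, and their part in these differences was not tested. Scd1 and Scd2 are close in sequence, so reads shared between them were left out of the counts.

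The entry enzymes of fatty acid synthesis showed no difference beyond the spread. Fasn, the fatty acid synthase, was at 170, 115 and 153 CPM in KLRG1-positive libraries, against 172, 73.6 and 181 CPM in KLRG1-negative libraries (0.04 ± 0.37), with library 2 the lowest in both sorts. Acaca, which makes malonyl-CoA, was scarce, at 4.84, 4.43 and 5.46 CPM in KLRG1-positive libraries, against 7.29, 1.30 and 2.45 CPM in KLRG1-negative libraries (0.42 ± 0.73). Elovl6, which extends palmitate, averaged 14.1 ± 1.99 CPM in KLRG1-positive cells, against 10.2 ± 7.03 CPM in KLRG1-negative cells.

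Because the summed ILC2 markers were higher in every KLRG1-positive library, each member was also expressed per 100 CPM of the 8 ILC2 markers, a ratio chosen after the values were seen and given without a test. The marker sum averaged 6464 CPM in KLRG1-positive libraries, against 2529 CPM in KLRG1-negative libraries, a ratio of 2.56, so the division lowers every gene alike in KLRG1-positive libraries. On this scale 1 of the 44 tested members was above and 27 (61.4%) were below in every KLRG1-positive library, where 0.461% of all tested genes were above and 60.8% below. The share below is near that of all genes. The values of single members that follow are description, and no result about those members is read from the scale. Pparg was the 1 above, at 3.09, 3.05 and 4.58 in KLRG1-positive and 0.642, 1.97 and 2.67 in KLRG1-negative libraries. Plin2 overlapped, at 3.85, 3.64 and 5.13 in KLRG1-positive libraries, against 4.91, 3.99 and 4.75 in KLRG1-negative libraries, and so did Elovl5, at 16.7, 10.1 and 9.75 in KLRG1-positive libraries, against 23.9, 10.8 and 14.2 in KLRG1-negative libraries. The markers include Il7r, Gata3 and Rora, which T cells also express, and whether their level per cell differs was not tested.

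**Figure D5:**
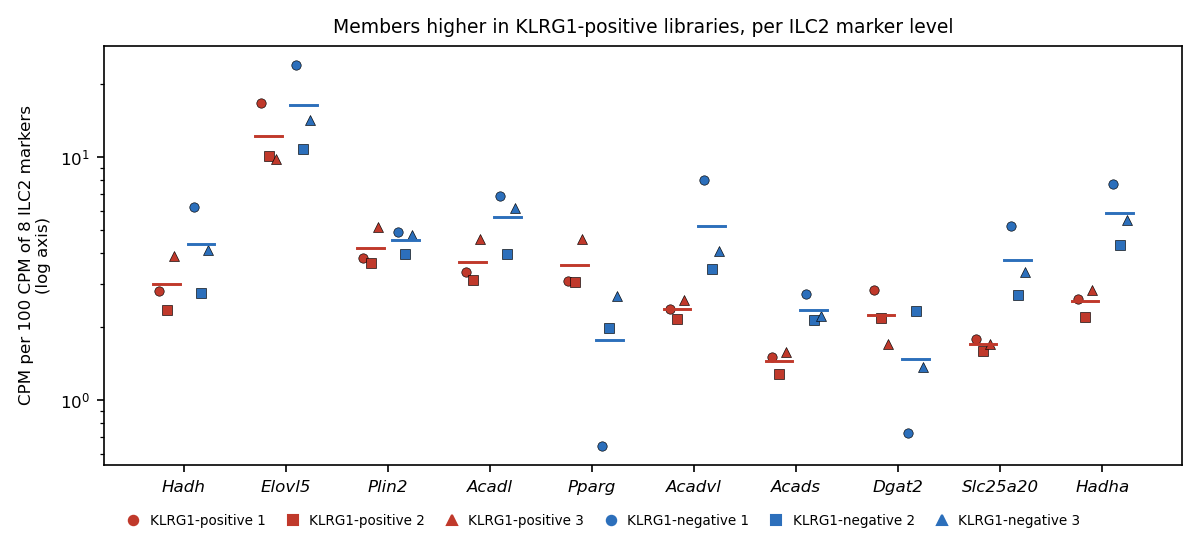
CPM of the 10 members from the upper panel of the library plot, divided by the summed CPM of 8 ILC2 markers in the same library and multiplied by 100 (log axis). Red symbols are KLRG1-positive and blue KLRG1-negative libraries. The divisor is larger in KLRG1-positive libraries and lowers all 10 genes there alike, so their shift against the CPM plot is set by the scale.

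A further 135 genes of the same pathways were listed by role, of which 104 were tested. Of these 104, 1 was higher in KLRG1-positive cells and 2 lower, where 0.125% of all tested genes were higher and 1.21% lower. Positive log2 fold changes numbered 52 and negative ones 52, where 46.5% of all tested genes had a positive one. Lpcat3, which places polyunsaturated chains into phospholipids, was at 311, 256 and 277 CPM in KLRG1-positive libraries, against 116, 142 and 123 CPM in KLRG1-negative ones (1.15 ± 0.17, adjusted p = 0.043). The 2 lower genes were Fads3, a desaturase that acts on sphingoid bases, and the endocytic lipoprotein receptor gene Lrp1. Fads3 was at 0.394, 0.427 and 0.311 CPM in KLRG1-positive libraries, against 11.6, 28.9 and 25.8 CPM in KLRG1-negative libraries (-5.85 ± 0.57, adjusted p = 0.0196), and Lrp1 at 3.49, 5.13 and 1.29 CPM in KLRG1-positive libraries, against 34.4, 104 and 77.7 CPM in KLRG1-negative libraries (-4.45 ± 0.69, adjusted p = 0.047). Fibroblasts express Lrp1, and their markers were lower in the same libraries. Their part in the Lrp1 difference was not tested. With the replicate block the adjusted p was 0.0863 for Lpcat3, 0.055 for Fads3 and 0.0856 for Lrp1, so none of the 3 passed.

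Among these genes, the lists of other oxidation genes and of other regulators and targets had 0 past the test among 31 and 22 tested, with medians of -0.01 and -0.02. The most abundant of each, per kilobase, were Acot7, an acyl-CoA thioesterase, and Ucp2, an uncoupling protein. Acot7 was at 603, 720 and 549 CPM in KLRG1-positive libraries, against 105, 328 and 254 CPM in KLRG1-negative libraries (1.45 ± 0.42, adjusted p = 0.158), with no overlap. Ucp2 was at 1358, 1247 and 1152 CPM in KLRG1-positive libraries, against 1095, 905 and 1148 CPM in KLRG1-negative libraries (0.26 ± 0.17, adjusted p = 0.566). The lists of other droplet genes, other uptake genes and other synthesis genes had medians of 0.20, -0.20 and 0.04 over 17, 15 and 19 tested genes, against -0.05 over all tested genes.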

How the data were processed

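The values used are read counts for each gene, deposited without normalization and made by the authors with featureCounts 1.5.2 on Ensembl release 90 models of GRCm38, per the file headers. Reads were counted without strand, and multi-mapping and ambiguous reads were left out, per the file headers. The submitters' processing notes also name bcl2fastq and STAR 2.4.1d. Gene length is another deposited column, and the values per kilobase divide by it. Per the labels' protocols, SMARTer chemistry amplified the cDNA and Nextera XT made the libraries.

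From the counts, edgeR 4.0.16 (R 4.3.3) was run (quasi-likelihood F test, robust) after TMM scaling and filterByExpr, over all 15197 tested genes, with Benjamini-Hochberg adjustment and a threshold of 0.05. Adjusted p-values without another name come from it. CPM use TMM-scaled library sizes. DESeq2 1.42.0, other scalings and filters, a replicate block and leaving out libraries were alternatives. The fit was tested on simulated data with 1 spread for every gene, near the common spread of these libraries. It recovered 78 of 100 changes of 16-fold and 0 of 100 changes of 4-fold. In the real data the spread differs between genes, and Lpcat3 passed at a log2 fold change of 1.15. A gene that did not pass is not shown to be unchanged. Symbols came from a GENCODE table, which held 52403 of the 52636 identifiers. The members and lists were chosen with earlier results of these data known. Values are given in every library for members past the threshold or with non-overlapping groups and an unadjusted p under 0.05, for the 2 most abundant per length in each role, and for 12 fixed genes. Other members are given by library or by mean. Of other pathway genes, up to 2 passing per direction are named, or the most abundant where none passed. The columns of the 6 libraries were all mapped to samples.

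Across genes, which are not independent, the deviation of each KLRG1-positive library from its group mean was correlated with that of each KLRG1-negative library. Libraries of the same number gave 0.456 (number 1), 0.444 (number 2) and 0.214 (number 3), and other pairs -0.415 to 0.0989. The numbers may thus mark pairs, but the labels do not say what they mark. The main fit did not use the numbers, and the replicate block was an alternative. Few counts limit the precision of scarce genes, and amplified reads are not independent molecules.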

Additional observations from a re-analysis of the deposited data

How the results depend on the processing

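In the edgeR fit with the replicate block, 0 members were called, and the direction of all 44 was kept. DESeq2 called 5 members higher and 5 lower, by role 1 regulator, 1 storage, 2 beta-oxidation and 1 synthesis gene higher, and 1 uptake, 1 storage, 1 lipolysis and 2 synthesis genes lower. DESeq2 with the replicate block, added after seeing the data, called 7 higher (1 regulator, 3 storage, 2 beta-oxidation, 1 synthesis) and 8 lower (3 uptake, 2 storage, 1 lipolysis, 2 synthesis), where it called 15.2% of all genes. Leaving out 1 library gave 0 members higher throughout and 0 to 1 lower, the 1 being the uptake gene Lpl without KLRG1-positive library 1.

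Over all genes, 19 were higher and 184 lower. The numbers were 346 and 1377 with DESeq2, 609 and 1697 with DESeq2 and the block, 37 and 282 without a filter, and 0 and 53 with the edgeR replicate block. Leaving out 1 library gave 0 to 5 higher and 0 to 159 lower, and leaving out both libraries numbered 1, 2 or 3 (added after seeing the data) 3, 0 and 0 higher and 168, 0 and 0 lower. Lpcat3 and Lrp1 lost their call without any 1 of the 6 libraries (adjusted p 0.0872 to 0.152 and 0.0615 to 0.153), and Fads3 without KLRG1-positive library 2 or 3 or KLRG1-negative library 2 or 3 (range over all 6, 0.0293 to 0.137).

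Of 704 log2 fold changes of members under the alternatives, 13 turned sign, in 4 genes whose log2 fold changes were within their standard errors. Leaving out 1 library, Acaa1a ran over -0.10 to 0.16, Lipe -0.19 to 0.18, Fasn -0.16 to 0.26 and Scd2 -0.66 to 0.35. The turned values there were -0.10 for Acaa1a without KLRG1-positive library 2, 0.18 and 0.11 for Lipe (KLRG1-positive library 3, KLRG1-negative library 2), -0.069 and -0.16 for Fasn (KLRG1-positive library 1, KLRG1-negative library 2) and 0.35 for Scd2 (KLRG1-negative library 3). Elsewhere, Acaa1a was at -0.016 by library size only and -0.0008 with a mean of at least 1 CPM, and Lipe at 0.028 with no filter. Leaving out both libraries numbered 2 gave -0.042 for Acaa1a and -0.021 for Fasn, and both numbered 3 gave 0.10 for Lipe and 0.20 for Scd2. The cause was not tested.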

Other observations

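Angptl4 and Hilpda, known as PPAR targets in other tissues, had log2 fold changes of opposite sign, neither past edgeR's test and both called by DESeq2, and are named after their values were seen. Angptl4, which inhibits lipoprotein lipase, was at 20.7, 10.2 and 17.1 CPM in KLRG1-positive libraries, against 42.6, 57.2 and 34.98 CPM in KLRG1-negative ones (adjusted p = 0.107 in edgeR and 0.00332 in DESeq2). Hilpda, a droplet protein that restrains the lipase ATGL, was the most abundant of the other droplet genes per kilobase, at 236 CPM per kilobase in KLRG1-positive cells, against 58.4 in KLRG1-negative cells. In CPM it was at 85.7, 387 and 308 CPM in KLRG1-positive libraries against 35.1, 87.8 and 70.2 CPM in KLRG1-negative ones. Its groups overlapped through KLRG1-positive library 1 alone (log2 fold change 2.01 ± 0.62, adjusted p = 0.181 in edgeR, 0.0139 in DESeq2 and 0.0741 in edgeR with the replicate block). Library 1 was likewise the lowest of each sort in Dgat1.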
